A study of Mus musculus with 6 samples.

Results

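The genes described here encode carriers that bring glucose, pyruvate, lactate and amino acids across the cell membrane or out of lysosomes. They were taken as every array probe annotated to 1 symbol of the families Slc1a, Slc2a, Slc3a, Slc5a, Slc6a, Slc7a, Slc16a, Slc36a, Slc38a and Slc43a, which gave 83 probes for 82 genes, out of 33012 probes and 13840 genes with a symbol. Symbols with a letter after the number, such as Slc6a20a, were not members. The choice used names only and no measured value.

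Each array held the amplified RNA of a single mouse oocyte. There were 3 mature oocytes from Ago2F/F, Zp3-Cre conditional knockout females, called Ago2-deficient here, and 3 wild-type germinal vesicle (GV) oocytes from adult females. Cre is driven in these mice by the promoter of the zona gene Zp3 in the growing oocyte, and the genotype of the single oocytes put on the arrays was not given. The labels say that the wild-type GV oocytes were taken from oviducts and freed of cumulus cells with hyaluronidase. The paper describes that collection for ovulated metaphase II oocytes. The stage of the wild-type oocytes is therefore taken as labelled and could not be checked here. No array analysed here was labelled as a wild-type mature oocyte. Loss of Ago2 and the step from GV to mature oocyte therefore cannot be told apart in any difference below.

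A mammalian oocyte oxidizes pyruvate and makes little use of glucose until after fertilization. The cumulus cells around it take up glucose, hand over pyruvate or lactate, and pass on several amino acids through gap junctions. Carriers of its own are used for glycine, which the cleaving mouse embryo accumulates to hold its volume, and for cystine, which feeds glutathione. The Slc7a light chains for cystine and cationic amino acids reach the surface only when bound to a heavy chain of the Slc3a family.

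Values are the log2 signals that the authors had quantile normalized over the 6 arrays, and a log2 difference is Ago2-deficient minus wild-type GV. A probe counted as detected where its signal-to-noise ratio reached 3. Fewer probes of any kind were detected in the Ago2-deficient oocytes, at 4620 to 6798, than in the wild-type GV oocytes, at 10650 to 11334, and replicate 1 was the lowest of the Ago2-deficient oocytes. The Ago2 probe read 6.67, 6.49 and 6.94 in Ago2-deficient oocytes and 7.88, 6.25 and 6.93 in the wild-type GV oocytes, was above the detection limit in 1 wild-type GV oocyte only, and so gave no check of the genotype. Of 15 oocyte markers on the array, 10 were detected in every Ago2-deficient oocyte and 14 in every wild-type GV oocyte. Among them were Gdf9 and Bmp15, the growth factors that oocytes secrete. Figla, Zp2 and Ddx4 were detected in no Ago2-deficient oocyte, although Figla and Zp2 were detected in every wild-type GV oocyte. The summed linear signal of the 15 markers was 1700000 to 1970000 in Ago2-deficient oocytes and 5530000 to 5880000 in wild-type GV oocytes. The summed linear signal of 16 cumulus and granulosa markers was 14800 to 40800 in Ago2-deficient oocytes and 5110 to 7690 in the wild-type GV oocytes. Btc had the highest mean log2 signal of these markers in Ago2-deficient oocytes, at 14.03 against 7.88 in the wild-type GV oocytes, and Ereg was next at 11.65 against 7.01. Btc and Ereg were detected in all Ago2-deficient and in no wild-type GV oocytes, whereas Amh, Fshr, Has2, Hsd3b1 and Tnfaip6 were detected on no array. Inha, Nr5a2 and Hsd17b1 of the same list ran the other way, detected in no, 1 and no Ago2-deficient oocytes and in every wild-type GV oocyte, and Inhba was detected in 1 Ago2-deficient and 2 wild-type GV oocytes. The summed signal of 9 markers of other ovarian, oviduct and blood cells was 3070 to 5390 in Ago2-deficient and 2900 to 3230 in wild-type GV oocytes. Of these, Epcam and Col1a2 were detected in every wild-type GV oocyte, and in no and 1 Ago2-deficient oocytes. The part of other cells in the differences below was not tested.

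The subunits of amino acid exchangers held several of the members that were lower, and the sequences before their genes are shown first. Slc3a2 encodes the heavy chain 4F2hc, and Slc7a11 encodes xCT, the light chain that forms with it the cystine and glutamate exchanger. Slc38a9, which encodes the arginine sensor of the lysosome, had the largest decrease among the members. RefSeq sequences (GRCm38.p6) that span a gene's start, 300 bases in all and mostly upstream, were given for 59 of the 82 genes, and 3 are printed 5′ to 3′ with capitals at matches to TGATGCAA, the core of the amino acid response element bound by ATF4, and to GGGCGG, the GC box, on either strand.
Slc7a11, chr3:50443564-50443863, minus strand: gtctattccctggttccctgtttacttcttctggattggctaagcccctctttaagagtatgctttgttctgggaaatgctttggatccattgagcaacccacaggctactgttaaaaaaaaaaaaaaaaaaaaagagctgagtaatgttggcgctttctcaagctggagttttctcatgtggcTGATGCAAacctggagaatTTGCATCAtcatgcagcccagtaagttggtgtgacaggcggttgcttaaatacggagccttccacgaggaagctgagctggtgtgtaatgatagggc
Slc3a2, chr19:8713848-8714147, minus strand: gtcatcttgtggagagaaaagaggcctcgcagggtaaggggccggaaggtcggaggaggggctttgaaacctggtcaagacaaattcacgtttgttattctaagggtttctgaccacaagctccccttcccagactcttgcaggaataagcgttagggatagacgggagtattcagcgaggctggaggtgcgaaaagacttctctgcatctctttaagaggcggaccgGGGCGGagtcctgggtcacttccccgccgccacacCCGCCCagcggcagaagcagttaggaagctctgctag
Slc38a9, chr13:112660516-112660815, plus strand: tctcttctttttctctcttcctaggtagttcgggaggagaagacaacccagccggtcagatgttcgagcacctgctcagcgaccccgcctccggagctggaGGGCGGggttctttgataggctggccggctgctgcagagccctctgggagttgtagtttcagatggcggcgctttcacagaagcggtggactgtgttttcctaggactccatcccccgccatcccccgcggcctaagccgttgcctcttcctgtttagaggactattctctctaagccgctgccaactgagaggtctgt
The Slc7a11 window held TGATGCAA at base 185 and its reverse complement at base 204, counted from the first base printed, and no GC box. The Slc3a2 window held 2 GC boxes and the Slc38a9 window 1, with no TGATGCAA in either. TGATGCAA lay in 0.895% of 32851 windows of this length and GGGCGG in 35.7%. Among the 80 windows of members the shares were 5% and 52.5%, with GGGCGG in 36 of the 59 genes. TGATGCAA was also in windows of Slc1a4 and Slc7a7, neither of which was tested. These motifs were chosen after the values were seen, no motif overlapped another, and a match describes the letters only.

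Few transporter probes were detected, and fewer in Ago2-deficient than in wild-type GV oocytes. Of the 83 probes, 8, 13 and 13 were detected in Ago2-deficient oocytes and 23, 25 and 19 in the wild-type GV oocytes. The means were 11.3 ± 2.89 and 22.3 ± 3.06 probes (SD, n = 3 oocytes each), and the groups did not overlap (two-sided p = 0.1 by an exact permutation test, and 3 against 3 can give no smaller one). As a share, this was 9.64% to 15.7% of the transporter probes against 14.0% to 20.6% of all probes in the Ago2-deficient oocytes, and 22.9% to 30.1% against 32.3% to 34.3% in the wild-type GV oocytes. No array therefore detected as large a share of these probes as of all probes.

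**Figure D1:**
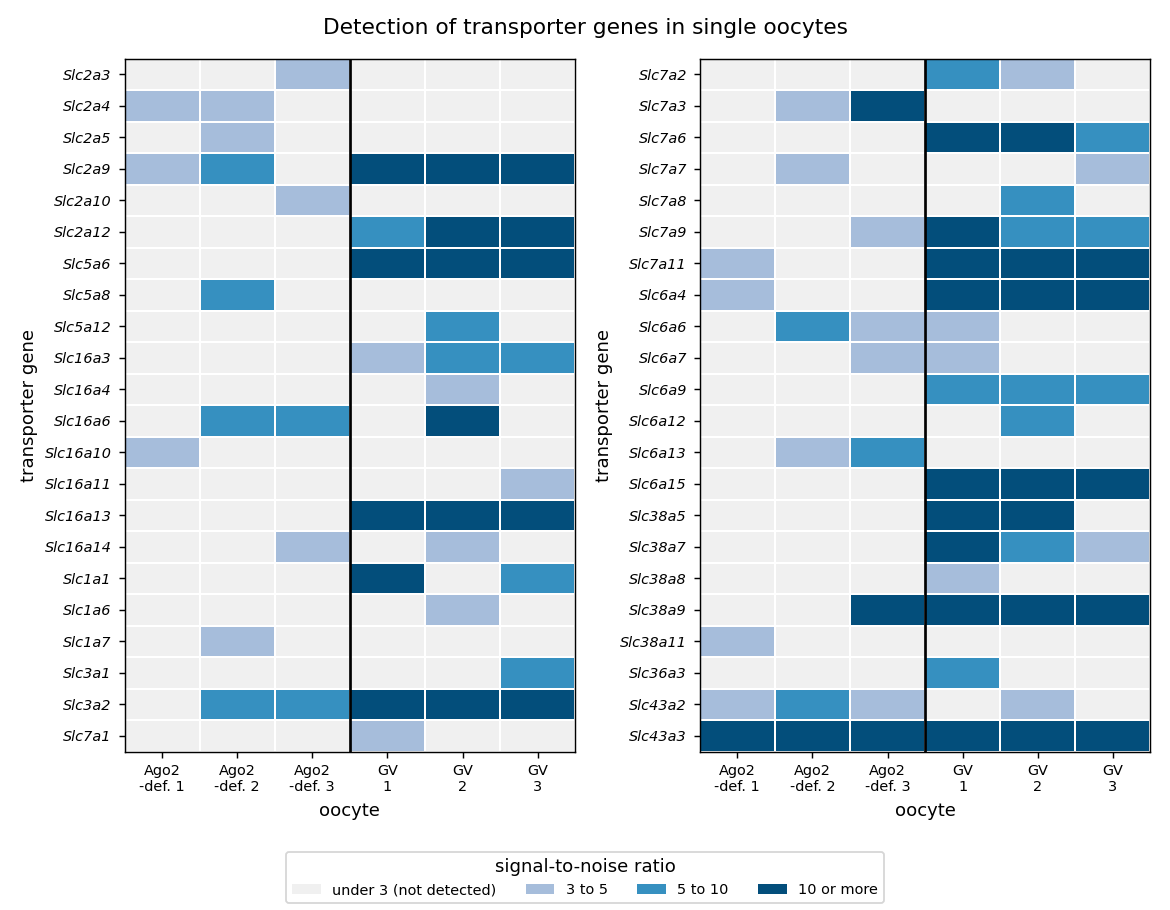
Signal-to-noise ratio (colour, in 4 classes) of the 44 transporter genes detected on at least 1 array (rows) in 3 oocytes each, Ago2-deficient mature and wild-type GV (columns); for a gene with 2 probes the detected one is drawn. Slc43a3 alone is detected in all 6 oocytes, and the darkest cells of the other genes lie mostly in the wild-type GV columns.

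Of the 82 genes, 38 were detected on no array, 28 on some arrays without reaching all 3 of a group, and 16 in all 3 oocytes of at least 1 group. Those 16 were tested with limma, among 7915 genes tested, of which 4568 had a symbol. With a call set at more than 2-fold and an adjusted p below 0.05, 1 was higher, 9 were lower and 6 were not called, beside 17.4% of all tested genes called higher, 44.8% called lower and 62.2% called either way. A gene that was tested because it was detected in one group had to be bright there, and 15 of the 16 passed through the wild-type GV oocytes, so these counts are no evidence on the family as a whole. The median log2 difference was -2.12 for the 16 genes and -1.39 for all tested genes. In 10 of the 16 the groups did not overlap, beside 70.4% of all tested genes. Of the 15 members detected in every wild-type GV oocyte, 8 were detected in no Ago2-deficient oocyte, beside 33.9% of all genes so detected. With 1 oocyte left out the genes called changed too. Without Ago2-deficient replicate 1 the counts were 5 higher and 9 lower, with Slc43a2, Slc6a6, Slc6a13 and Slc7a3 added to the higher genes, Slc2a12 added to the lower genes and Slc38a7 lost from them. Without Ago2-deficient replicate 3 they were 2 and 9, with Slc2a4 added to the higher genes, Slc16a3 and Slc7a9 added to the lower genes and Slc38a7 and Slc5a6 lost from them. Without wild-type GV replicate 1 they were 1 and 4, without wild-type GV replicate 3 they were 1 and 5, and without wild-type GV replicate 2 they were 1 and 6, with Slc1a1 among the 6.

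**Figure D2:**
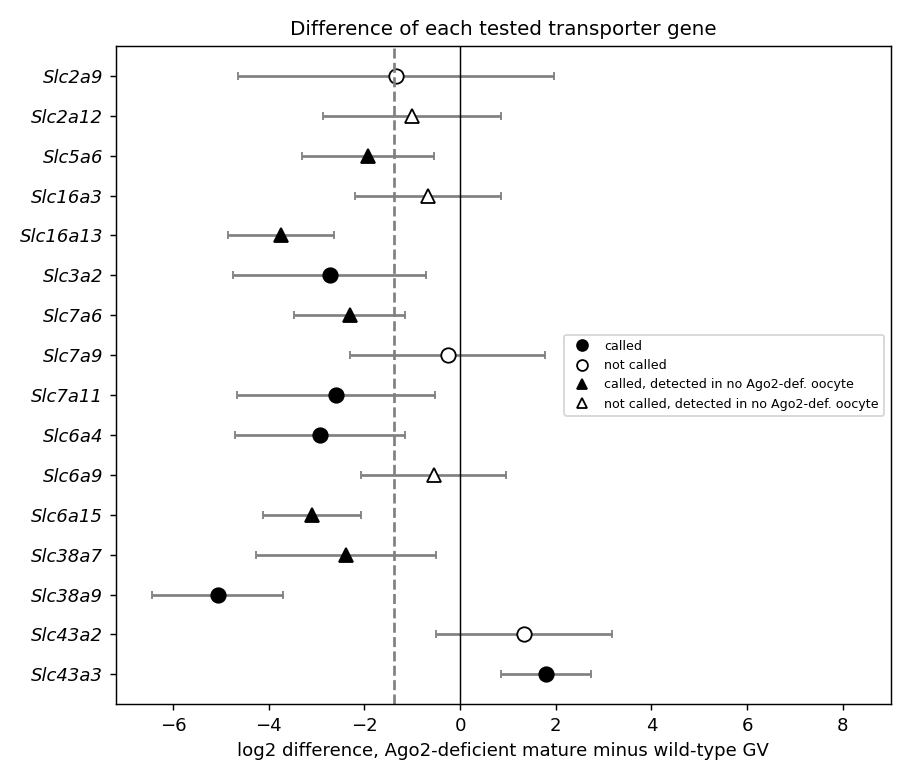
Log2 difference of the 16 tested transporter genes, Ago2-deficient mature minus wild-type GV (horizontal axis), with 95% intervals from the fit across all genes as bars; filled symbols are called genes, triangles mark genes that no Ago2-deficient oocyte detected, with all tested genes' median of -1.39 dashed. Slc43a3 at 1.80 is the only filled symbol right of 0, a side that depends on the scaling, and Slc38a9 at -5.07 lies farthest left.

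The 2 lysosomal carriers of the Slc38a family were lower in Ago2-deficient than in wild-type GV oocytes. Slc38a9 is an arginine-gated carrier of the lysosomal membrane that signals arginine to the growth kinase mTORC1. It had log2 signals of 9.06, 7.66 and 9.75 in Ago2-deficient oocytes and 13.60, 14.03 and 14.04 in the wild-type GV oocytes. The highest Ago2-deficient oocyte, the only one in which the probe was detected, lay far under the lowest wild-type GV oocyte. The log2 difference was -5.07 (SE 0.57, limma adjusted p = 0.000509), and it stayed called under every alternative that tested the gene, at -4.49 to -5.53 without any one oocyte and with -3.53 under cyclic loess and -7.39 after the array medians were made equal as the extremes. Slc38a7, which exports glutamine from lysosomes, had log2 signals of 5.58, 8.50 and 5.88 in Ago2-deficient oocytes against 9.33, 8.99 and 8.79 in wild-type GV oocytes. It was detected in no Ago2-deficient oocyte and was at least 4.16-fold lower on the deposited scaling (adjusted p = 0.0347 from limma). This bound sets the wild-type GV mean against, in each Ago2-deficient oocyte, the higher of its own signal and the lowest detected signal of that array. The bound allows for that lowest detected signal only, not for the spread between oocytes or the choice of scaling. Undetected probes can read above that signal, so the bound is no strict limit. Where every undetected signal was above that lowest one, the bound equals the fold of the means. Without Ago2-deficient replicate 2, whose signal came close to the wild-type GV values, Slc38a7 was at least 7.04-fold lower. Its call was lost without any one of the other oocytes: at adjusted p = 0.0728 and 0.0902 without Ago2-deficient replicate 1 or 3, and at 0.109, 0.0903 and 0.0791 without wild-type GV replicate 1, 2 or 3 (limma). After centring on probes seen on all 6 arrays its difference was -1.05 and not called.

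The glutamine carriers of the cell surface in the same family gave no level. Slc38a1, Slc38a2 and Slc38a3 were detected on no array. Slc38a3 is the carrier by which cumulus cells take up amino acids on behalf of the oocyte, and its log2 signals were 7.12, 6.44 and 7.25 in the Ago2-deficient and 6.43, 6.83 and 6.60 in the wild-type GV oocytes. Slc38a5, a carrier of glutamine, asparagine and histidine, was uneven among wild-type GV oocytes. Its log2 signals were 9.72, 7.25 and 8.72 in the Ago2-deficient oocytes, all under the detection limit, and 9.75, 12.55 and 7.65 in the wild-type GV oocytes, of which 2 were detected. It was not tested, and the groups overlapped.

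The heavy chain Slc3a2 and 2 light chains that bind it were lower in Ago2-deficient oocytes. Slc3a2 had log2 signals of 7.17, 8.95 and 10.68 in Ago2-deficient oocytes and 11.54, 11.81 and 11.62 in the wild-type GV oocytes. The wild-type GV oocytes lay within a narrow band, and the Ago2-deficient oocytes were spread out below it, with the gene detected in 2 of them. Its log2 difference was -2.72 (SE 0.84, limma adjusted p = 0.0275). The call was lost without Ago2-deficient replicate 2 (adjusted p = 0.0633) and without wild-type GV replicate 1, 2 or 3 (0.0760, 0.0832 and 0.0759, limma), the difference was -1.84 without Ago2-deficient replicate 1 and -3.60 without Ago2-deficient replicate 3, and with cyclic loess the difference was -0.97 and not called.

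Slc7a11, the cystine and glutamate exchanger, had log2 signals of 9.49, 8.71 and 6.28 in Ago2-deficient oocytes against 10.38, 11.54 and 10.33 in the wild-type GV oocytes. It was detected in Ago2-deficient replicate 1 only, just over the limit, and the groups did not overlap. The log2 difference was -2.59 (SE 0.86, limma adjusted p = 0.0358) and -1.65 without Ago2-deficient replicate 3. The call was lost without Ago2-deficient replicate 2 (adjusted p = 0.0538) and without wild-type GV replicate 1, 2 or 3 (0.0787, 0.120 and 0.0732, limma), and with cyclic loess (-0.86), and the difference was -3.26 without Ago2-deficient replicate 1. Slc7a6, the light chain y+LAT2 that exchanges arginine for neutral amino acids, was even among the Ago2-deficient oocytes at 7.57, 7.52 and 7.72 and undetected in all of them, against 9.52, 10.90 and 9.32 in the wild-type GV oocytes. It was 4.95-fold lower by the means and by the bound (adjusted p = 0.00584 from limma), and 3.52-fold without wild-type GV replicate 2. It stayed called without any one oocyte, but not with cyclic loess (-0.46) or after centring on probes seen on all 6 arrays (-1.29).

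Slc7a9, which pairs with the other heavy chain Slc3a1 to carry cystine and cationic amino acids, was not called. Its log2 signals were 7.61, 6.66 and 10.08 in Ago2-deficient oocytes and 8.38, 8.16 and 8.60 in the wild-type GV oocytes, a difference of -0.26 with a 95% interval from -2.30 to 1.78. The oocyte in which it was detected among the Ago2-deficient ones, replicate 3, lay above every wild-type GV oocyte, and without it the difference was -1.25 and called (adjusted p = 0.0407, limma). Without Ago2-deficient replicate 2 the sign turned (0.47), as it did with cyclic loess (0.22) and after centring on probes seen on all 6 arrays (1.12). Slc3a1 itself was detected in 1 wild-type GV oocyte. The large neutral carrier Slc7a5, another partner of Slc3a2, was detected on no array, at log2 signals of 7.35, 8.05 and 8.53 in Ago2-deficient oocytes and 6.58, 6.58 and 7.72 in the wild-type GV oocytes.

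Carriers of the cationic branch of Slc7a, which move arginine and lysine without a heavy chain, were not tested. Slc7a3 had log2 signals of 7.15, 9.35 and 11.14 in the Ago2-deficient oocytes, detected in replicates 2 and 3, against 6.38, 6.52 and 6.92 in the wild-type GV oocytes, detected in none. Every Ago2-deficient oocyte lay above the wild-type GV range, though the lowest of them was under the detection limit. Slc7a1 read 10.09, 10.47 and 10.13 in Ago2-deficient oocytes and 8.83, 8.51 and 8.41 in the wild-type GV oocytes, yet only wild-type GV replicate 1 passed the limit, since signal-to-noise ratios in the Ago2-deficient oocytes were 0.03, 0.13 and 1.73. Slc7a2 was detected in 2 wild-type GV oocytes, and its groups overlapped.

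**Figure D3:**
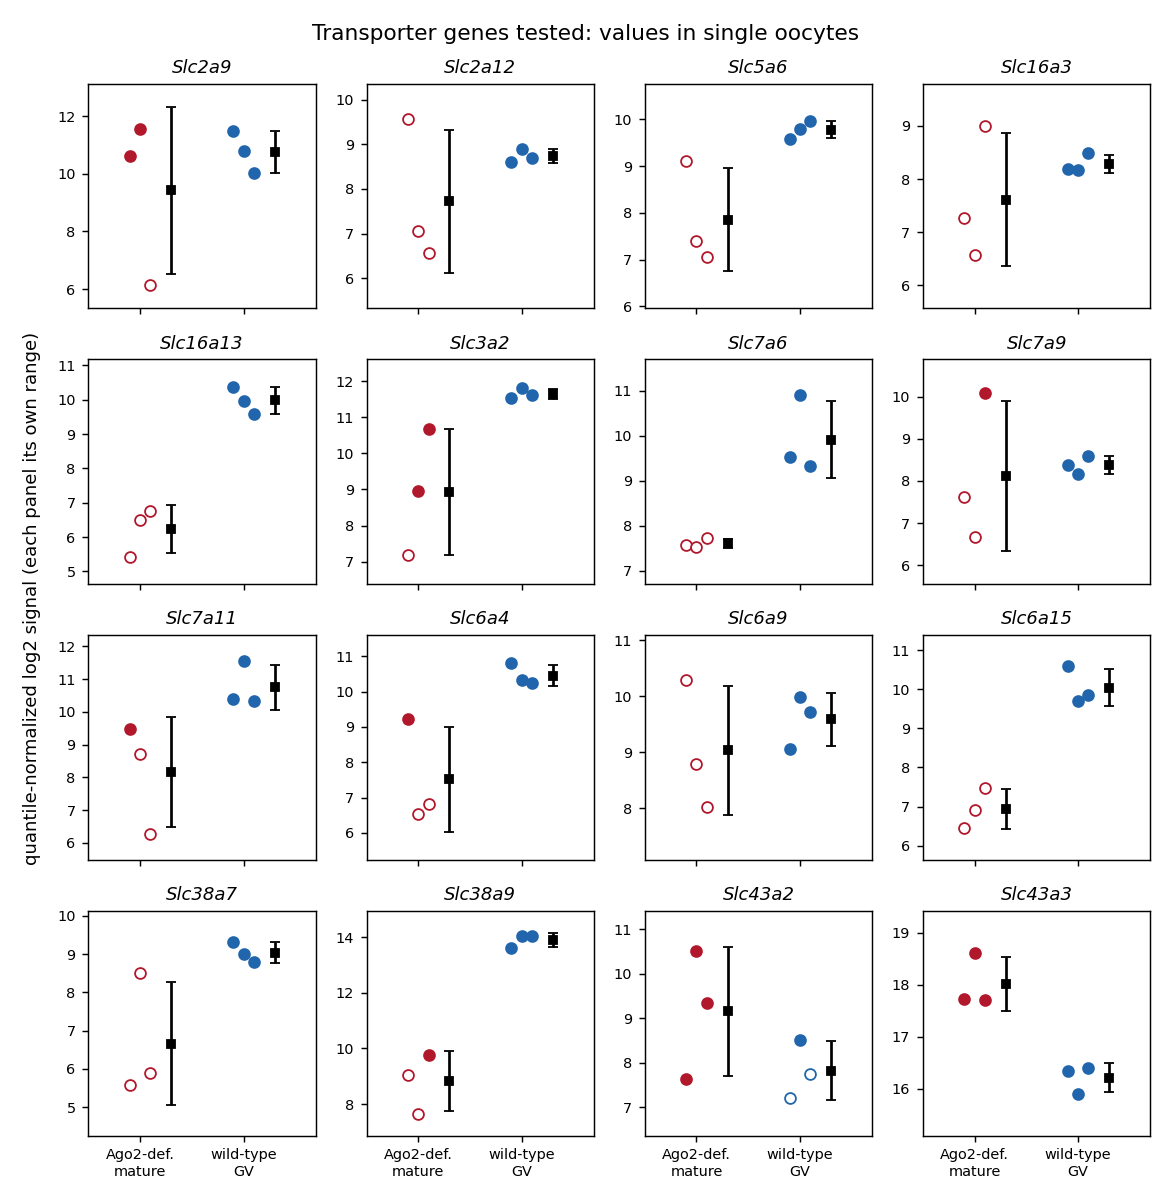
Quantile-normalized log2 signal (vertical axis, each panel with its own range) of the 16 tested transporter genes in single oocytes, Ago2-deficient mature on the left and wild-type GV on the right; filled circles were detected, open circles were not, while the mean and SD of 3 oocytes are drawn as a square with a bar. The Ago2-deficient circles are mostly open, and for Slc16a13, Slc6a15 and Slc38a9 they lie well below the wild-type GV circles.

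Of 3 sodium- and chloride-dependent Slc6a carriers tested, 2 were lower and the glycine carrier was not called. Slc6a15, a carrier of branched-chain amino acids and proline, had log2 signals of 6.45, 6.91 and 7.47 in Ago2-deficient oocytes and 10.58, 9.69 and 9.86 in the wild-type GV oocytes. No Ago2-deficient oocyte detected it, and it was 8.57-fold lower by the means and by the bound (adjusted p = 0.00104 from limma), on the deposited scaling. Its call was kept under every alternative that tested it, at log2 differences as small as -1.47 with cyclic loess and -2.05 after centring on probes seen on all 6 arrays. Slc6a4, the serotonin transporter, read 9.24, 6.52 and 6.81 in Ago2-deficient oocytes and 10.80, 10.33 and 10.24 in the wild-type GV oocytes. Replicate 1 was the only Ago2-deficient oocyte in which it was detected. The log2 difference was -2.94 (SE 0.74, limma adjusted p = 0.0126), and the call was lost without wild-type GV replicate 1 (adjusted p = 0.0523), with ordinary t-statistics (adjusted p = 0.0516) and with cyclic loess (-1.26, adjusted p = 0.103), while the difference was -3.79 without Ago2-deficient replicate 1.

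Slc6a9 encodes GLYT1, through which oocytes and early embryos take up glycine. Its log2 signals were 10.29, 8.78 and 8.02 in Ago2-deficient oocytes and 9.05, 9.99 and 9.71 in the wild-type GV oocytes. The groups overlapped, and although no Ago2-deficient oocyte passed the detection limit, the one with the highest signal exceeded every wild-type GV oocyte. The log2 difference was -0.55, 1.47-fold by the means and by the bound, and was not called (95% interval -2.07 to 0.96, adjusted p = 0.470, limma). The bound was 2.27-fold without Ago2-deficient replicate 1 and 1.03-fold without Ago2-deficient replicate 3, neither called. The difference was -2.31 and called after the array medians were made equal but 0.92 with cyclic loess. Slc6a6, the taurine transporter, was detected in 2 Ago2-deficient and 1 wild-type GV oocytes, at 6.85, 8.28 and 10.09 in Ago2-deficient oocytes against 7.90, 6.72 and 6.85 in wild-type GV oocytes, and was not tested. Slc6a13, a carrier of GABA and taurine, read 7.55, 8.32 and 8.78 in the Ago2-deficient oocytes, detected in 2, and 7.39, 6.80 and 7.20 in the wild-type GV oocytes, detected in none, with no overlap. Neither gene was detected in all oocytes of a group.

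Among the monocarboxylate carriers the 2 tested genes differed in outcome. Slc16a13, a carrier named for its likeness to the lactate and pyruvate transporters, had log2 signals of 5.43, 6.51 and 6.77 in Ago2-deficient oocytes and 10.38, 9.97 and 9.59 in the wild-type GV oocytes. Every wild-type GV oocyte and no Ago2-deficient oocyte detected it, and it was at least 11.4-fold lower (adjusted p = 0.000724 from limma), on the deposited scaling. It stayed called under every alternative that tested it, at log2 differences as small as -2.78 with cyclic loess and -2.68 after centring on probes seen on all 6 arrays. Slc16a3, the lactate exporter MCT4, read 7.27, 6.57 and 8.99 in Ago2-deficient oocytes and 8.19, 8.17 and 8.48 in the wild-type GV oocytes. Its log2 difference of -0.67, 1.59-fold by the means and by the bound, was not called (95% interval -2.19 to 0.85, adjusted p = 0.387, limma). Ago2-deficient replicate 3 was above every wild-type GV oocyte though under the detection limit, and without it the difference was -1.36 and called (adjusted p = 0.0203, limma).

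Slc16a1, the lactate and pyruvate carrier MCT1, was detected on no array, at log2 signals of 6.99, 7.98 and 7.69 in the Ago2-deficient and 5.94, 6.85 and 7.10 in the wild-type GV oocytes. Slc16a7, the high-affinity pyruvate carrier MCT2, had no probe annotated to its symbol alone and so gave no value here. Slc16a6 was high in single oocytes of both groups, at 8.87, 11.60 and 10.22 in the Ago2-deficient oocytes, of which the last 2 were detected, and at 6.73, 10.59 and 6.99 in the wild-type GV oocytes, of which replicate 2 was. Slc16a10, a carrier of aromatic amino acids, read 11.24, 8.94 and 9.60 in the Ago2-deficient oocytes, detected in replicate 1, against 7.06, 7.61 and 7.49 in the wild-type GV oocytes, detected in none. Neither gene was tested.

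No classical glucose transporter was detected in all oocytes of a group. Slc2a1, the widespread GLUT1, was detected on no array, at 9.35, 7.41 and 7.74 in the Ago2-deficient and 7.86, 7.27 and 8.21 in the wild-type GV oocytes. Slc2a8 was detected on no array either. Slc2a3, which encodes GLUT3, was detected only in Ago2-deficient replicate 3, where its log2 signal was 7.07, under the 7.90, 7.96 and 7.74 of the wild-type GV oocytes. Slc2a4, the insulin-responsive GLUT4, read 7.78, 8.15 and 6.95 in the Ago2-deficient oocytes, detected in 2 at signal-to-noise ratios of 3.31 and 3.18, and 5.60, 5.93 and 6.63 in the wild-type GV oocytes. These signals near the limit gave no test.

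The sugar carriers that were tested are Slc2a9, the urate carrier GLUT9, and Slc2a12, and neither was called. Slc2a9 had log2 signals of 10.60, 11.56 and 6.13 in Ago2-deficient oocytes and 11.50, 10.78 and 10.03 in the wild-type GV oocytes. Replicates 1 and 2 of the Ago2-deficient oocytes fell within or just above the wild-type GV range, while the gene was undetected in replicate 3. The log2 difference of -1.34 (95% interval -4.64 to 1.96, adjusted p = 0.424, limma) became 0.31 without that oocyte, and was -1.92 and -2.40 without Ago2-deficient replicate 1 or 2, none of them called. It was called lower after the array medians were made equal (-3.69, adjusted p = 0.00135) and with no scaling (-2.59, adjusted p = 0.0133). Slc2a12, another facilitative glucose carrier, read 9.56, 7.05 and 6.57 in Ago2-deficient oocytes against 8.60, 8.90 and 8.70 in wild-type GV oocytes, so that the groups overlapped. Slc2a12 was 2.01-fold lower by the means and by the bound, and was not called (95% interval of the log2 difference -2.87 to 0.86, adjusted p = 0.294, limma). Undetected in every Ago2-deficient oocyte, it was called at -1.92 without replicate 1 of them (adjusted p = 0.00318, limma). Among the sodium-coupled Slc5a genes only Slc5a6, the carrier of biotin and pantothenate, was tested. Its log2 signals were 9.10, 7.41 and 7.05 in Ago2-deficient oocytes and 9.58, 9.79 and 9.96 in the wild-type GV oocytes. No Ago2-deficient oocyte detected it, and it was 3.80-fold lower by the means and by the bound (adjusted p = 0.0244 from limma). It was 5.85-fold lower without Ago2-deficient replicate 1 and 2.87-fold lower without Ago2-deficient replicate 3. Its call was lost without Ago2-deficient replicate 2 or 3 (adjusted p = 0.0679 and 0.0564) and without wild-type GV replicate 1, 2 or 3 (0.0639, 0.0747 and 0.0820, limma), and the difference was -0.34 with cyclic loess and -1.09 after centring on probes seen on all 6 arrays, neither called. The myo-inositol carrier Slc5a3 was detected on no array.

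On the deposited values the 2 Slc43a genes stood above 0, where every other tested member stood below it. Slc43a3 carries purine nucleobases, although its family is named for large neutral amino acids, and it was the only member detected in all 6 oocytes. Its log2 signals were 17.72, 18.62 and 17.70 in Ago2-deficient oocytes and 16.34, 15.89 and 16.40 in the wild-type GV oocytes. Every Ago2-deficient oocyte exceeded every wild-type GV oocyte, by a log2 difference of 1.80 (SE 0.39, limma adjusted p = 0.00689). The call was kept without any one oocyte, but the direction depended on the scaling: the difference was -0.53 after the array medians were made equal and 0.58 with no scaling, neither called. Slc43a2, which encodes the large neutral carrier LAT4, read 7.63, 10.51 and 9.34 in Ago2-deficient oocytes and 7.21, 8.52 and 7.74 in the wild-type GV oocytes. It was the only member tested through the Ago2-deficient oocytes, all 3 of which detected it, against 1 wild-type GV oocyte. The log2 difference of 1.34 was not called (95% interval -0.51 to 3.18, adjusted p = 0.169, limma), and it was called at 2.10 without Ago2-deficient replicate 1 (adjusted p = 0.0157), at 1.59 with no scaling, at 1.75 with cyclic loess and at 2.69 after centring on probes seen on all 6 arrays. It was 0.67 without Ago2-deficient replicate 2 (adjusted p = 0.422) and 0.48 after the array medians were made equal (adjusted p = 0.489), neither called.

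**Figure D4:**
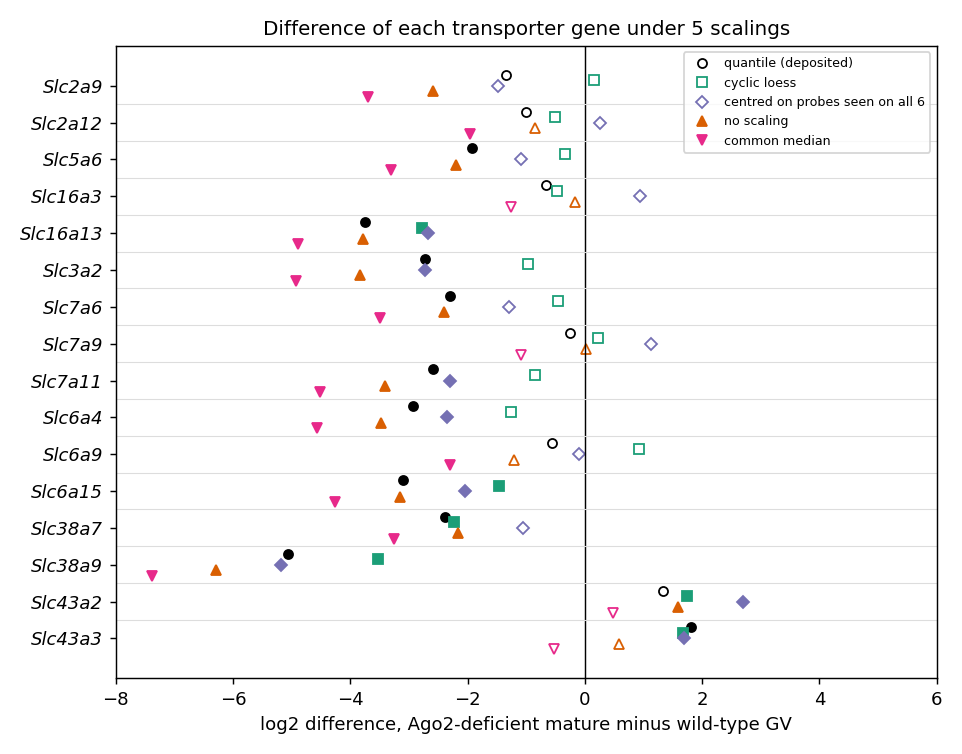
Log2 difference of the 16 tested transporter genes, Ago2-deficient mature minus wild-type GV (horizontal axis), under the deposited quantile scaling and 4 other scalings of the arrays; filled symbols are called. Slc16a13, Slc6a15 and Slc38a9 are filled and left of 0 under all 5, whereas Slc43a3 runs from 1.80 to -0.53.

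The scaling moved the whole set together with all genes. The median log2 difference of the 16 genes was -2.12 on the deposited values, -3.40 after the array medians were made equal, -2.30 with no scaling, -1.19 after centring on probes seen on all 6 arrays and -0.49 with cyclic loess. The medians of all tested genes under the same scalings were -1.39, -3.08, -1.98, -0.87 and -0.36. Of the 9 members called lower, Slc16a13, Slc6a15 and Slc38a9 were called lower under all 5. With no filter on dim probes, and with ordinary t-statistics, Slc3a2, Slc5a6, Slc7a11 and Slc38a7 lost their calls, and Slc6a4 lost its call with ordinary t-statistics alone. Of the 6 genes not called, Slc2a9, Slc2a12, Slc16a3, Slc6a9 and Slc7a9 had a difference of the other sign under cyclic loess or the centring. Slc2a9, Slc2a12 and Slc6a9 were called lower after the array medians were made equal, for 12 genes called lower in all, and Slc2a9 with no scaling as well, for 10. The spread among oocytes was wider in the Ago2-deficient group, with a median SD of 1.35 over the 16 genes against 0.29 in the wild-type GV group, beside 0.74 and 0.28 over all tested genes. Of the 16 genes, 15 were detected in every wild-type GV oocyte, and 8 of those in no Ago2-deficient oocyte. Their SDs thus set detected signals against mostly undetected ones.

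Glutamate carriers of the Slc1a family and proton-coupled Slc36a carriers were not tested. Slc1a1, the neuronal glutamate and cysteine carrier, was detected in 2 wild-type GV oocytes, at 7.47, 8.86 and 7.32 in the Ago2-deficient and 10.53, 7.20 and 9.40 in the wild-type GV oocytes, and the groups overlapped. Slc1a5, the neutral exchanger ASCT2, was undetected on every array at 8.35, 9.40 and 9.55 in Ago2-deficient oocytes against 7.36, 7.45 and 7.27 in wild-type GV oocytes. Of 3 Slc36a genes on the array, Slc36a3 was detected in 1 wild-type GV oocyte and the others in none.

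Among genes that act with these carriers, those called were lower, in a list tested mostly through the wild-type GV oocytes. The list held 31 genes for chaperones of the carriers, their regulators, amino acid sensing and the first metabolic steps of their cargo, of which 22 were on the array and 11 were tested. Of these 7 were lower, 4 were not called and 0 were higher (limma; the count at an unadjusted p under 0.05 and fold over 2 was also 0), beside the 44.8% and 17.4% of all tested genes. The median log2 difference was -1.81. All 11 were detected in every wild-type GV oocyte, and of them only Ldhb and Atf4 in every Ago2-deficient oocyte. The others were thus tested because they were bright in wild-type GV oocytes, so these counts are no evidence on the list as a whole. Rraga encodes a Rag GTPase of the lysosome through which Slc38a9 signals to mTORC1, and it had log2 signals of 7.13, 6.82 and 6.60 in Ago2-deficient oocytes and 10.89, 10.93 and 10.37 in the wild-type GV oocytes. It was detected in no Ago2-deficient oocyte and was 14.7-fold lower by the means and by the bound (adjusted p = 0.000239 from limma) on the deposited scaling. It stayed called at -1.89 with cyclic loess and -3.02 after centring on probes seen on all 6 arrays. Its partner Rragc read 7.32, 10.15 and 8.65 in Ago2-deficient oocytes against 10.50, 10.38 and 10.61 in wild-type GV oocytes and was not called (-1.79, adjusted p = 0.0620), but was called at -2.51 without Ago2-deficient replicate 2. It was -1.09 and not called without Ago2-deficient replicate 1, 0.12 with cyclic loess, and called after the array medians were made equal (-3.62), with no scaling (-2.51) and after centring on probes seen on all 6 arrays (-1.40). Mtor was detected on no array.

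Lactate dehydrogenase was measured by both its subunits. Ldhb, the heart-type subunit and the main one of mouse oocytes, had log2 signals of 16.12, 16.09 and 16.31 in Ago2-deficient oocytes and 18.93, 18.53 and 18.68 in the wild-type GV oocytes, detected in all 6. The 2 groups were each tight and far apart, and the log2 difference was -2.54 (SE 0.31, limma adjusted p = 0.000645). Ldha read 7.67, 10.26 and 10.05 in Ago2-deficient oocytes against 10.95, 11.67 and 10.56 in wild-type GV oocytes, a difference of -1.73 that was not called (adjusted p = 0.0834) and was -0.90 without Ago2-deficient replicate 1. The other scalings gave -3.97 after the array medians were made equal, -2.87 with no scaling and -1.76 after centring on probes seen on all 6 arrays, all called, and -0.04 with cyclic loess. Bsg, the chaperone that takes lactate carriers to the surface, was just outside the call at -1.04 (adjusted p = 0.0570), and was called at -1.34 without Ago2-deficient replicate 3 and under the same 3 scalings as Ldha (-4.03, -2.93 and -1.82), with -0.11 under cyclic loess. Pdha1, a subunit of pyruvate dehydrogenase, had a difference of -1.28 that missed the threshold (adjusted p = 0.197). It reached a call at -2.20 without Ago2-deficient replicate 2, after the array medians were made equal (-2.70) and with no scaling (-1.60), and was -0.62 without Ago2-deficient replicate 3 and 0.42 with cyclic loess.

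Glul, glutamine synthetase, read 10.43, 10.09 and 7.42 in Ago2-deficient oocytes and 13.00, 11.45 and 12.13 in the wild-type GV oocytes, a log2 difference of -2.88 (SE 0.87, limma adjusted p = 0.0251). Its call was lost without wild-type GV replicate 1 or 3 (adjusted p = 0.0932 and 0.0702, limma), and with cyclic loess (-1.47, adjusted p = 0.110). With no filter on dim probes (adjusted p = 0.0653, limma) and with ordinary t-statistics (adjusted p = 0.0844) the call was lost too, and the difference was -1.93 without Ago2-deficient replicate 3. Gja4, the connexin of the gap junctions on the oocyte side, was detected in no Ago2-deficient oocyte. It read 6.60, 6.34 and 6.31 there, against 9.96, 8.91 and 9.11 in wild-type GV oocytes. On the deposited scaling it was at least 7.54-fold lower (adjusted p = 0.000918 from limma), a call lost after centring on probes seen on all 6 arrays (-1.55). The other 3 genes called were Glud1, Txnip and Atf4, named after their values were seen. Glud1, which turns glutamate into oxoglutarate, was 4.30-fold lower by the means and by the bound (adjusted p = 0.00313, limma), a call lost under the same centring (-0.53). A second Glud1 probe was detected on no array and was not tested, with a log2 difference of -0.56 and overlapping groups. Txnip, an arrestin that draws glucose transporters inside, was 2.86-fold lower by the means and by the bound on the deposited values (adjusted p = 0.0487, limma). Its difference was 0.12 on the log2 scale after that centring, and its call was kept in 9 of 20 alternatives. The call was lost without Ago2-deficient replicate 2 or 3 (adjusted p = 0.116 and 0.0671, limma) or wild-type GV replicate 1 or 3 (0.137 and 0.162). It was also lost with no scaling (0.171), cyclic loess (0.0703), no filter on dim probes (0.142), a signal-to-noise limit of 2 (0.0521) and ordinary t-statistics (0.103). Atf4, the transcription factor that binds amino acid response elements, was detected in all 6 oocytes at 15.30, 15.11 and 13.79 in the Ago2-deficient and 16.30, 16.01 and 17.33 in the wild-type GV oocytes. Its log2 difference of -1.81 (adjusted p = 0.0278 from limma) was not called without Ago2-deficient replicate 3 (-1.34, adjusted p = 0.0534) or wild-type GV replicate 1 or 3 (0.0657 and 0.0989), or with the replicate number as a block. Nor was it called with no filter on dim probes (adjusted p = 0.0872, limma) or with ordinary t-statistics (adjusted p = 0.0721).

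**Figure D5:**
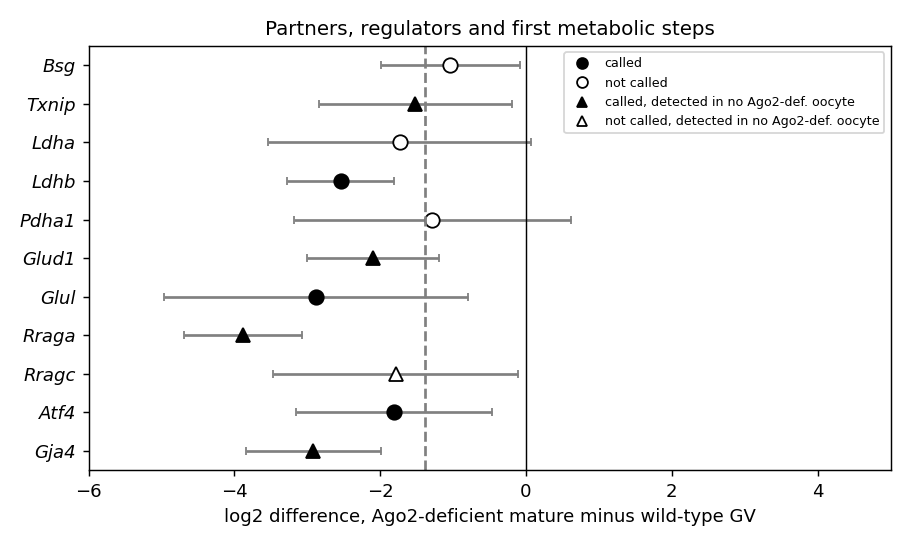
Log2 difference of the 11 tested partner genes, Ago2-deficient mature minus wild-type GV (horizontal axis), with 95% intervals from the fit across all genes as bars; filled symbols are called genes, triangles mark genes that no Ago2-deficient oocyte detected, with all tested genes' median of -1.39 dashed. All 11 symbols lie left of 0 on these values, with Rraga at -3.88 farthest, and all but Ldhb and Atf4 were tested only through the wild-type GV oocytes. After centring on probes seen on all 6 arrays Txnip moves to 0.12, and with cyclic loess Rragc moves to 0.12 and Pdha1 to 0.42.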

How the data were processed

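The authors amplified the cDNA of each single oocyte, hybridized digoxigenin-labelled cRNA to Applied Biosystems mouse arrays and scanned their chemiluminescence. The deposited files gave for each probe a signal intensity with no scaling between arrays, a signal-to-noise score, a flag code and the log2 signal that the authors had quantile normalized over the 6 arrays. The same log2 values stood in the deposited series table, where 2675 of 198072 cells were empty, all of them flagged spots.

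Symbols came from the array's annotation (14411 probes with 1 symbol, 247 with several and 18354 with none), and all 82 members were found under the same symbol in the RefSeq gene table used. Probes with detection throughout 1 group or both entered the test (8018 probes, 7915 genes, a gene with several probes counted by the brightest). The main test was limma 3.58.1 (lmFit, eBayes; R 4.3.3) on these log2 values with no block, and Benjamini-Hochberg adjustment ran over all probes tested. The fit was tested first on simulated data that gave both groups the same spread for each probe. That simulation did not cover the unequal spread of the 2 groups of oocytes. Intervals are at 95%. The number of arrays limits the precision, and since nothing says that the oocytes came from separate females, p-values measure the spread between these oocytes only.

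Named genes are all tested members, a set of carriers known in oocytes or common in cells, and called or bright partners. The members, lists and tests were chosen with earlier results of these data known. Alternatives covered scaling, filter, detection limit, flags, threshold, variance model, replicate block, probe choice and each oocyte left out. Python 3.11.15 and matplotlib 3.10.9 served for the plots.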

Additional observations from a re-analysis of the deposited data

How the results depend on the processing

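Over 27 named genes with a test, 566 values under the alternatives gave 466 with the same direction and call, 60 that lost the call, 27 that gained it and 13 with the sign turned, none of them called. Of the called genes, Slc43a3 turned to -0.53 after the array medians were made equal and Txnip to 0.12 after centring on probes seen on all 6 arrays. Of the uncalled genes, Slc2a9 (0.16), Slc6a9 (0.92), Slc7a9 (0.22), Pdha1 (0.42) and Rragc (0.12) turned with cyclic loess, Slc2a12 (0.26), Slc16a3 (0.95) and Slc7a9 (1.12) after that centring, and Slc7a9 (0.014) with no scaling. With 1 oocyte left out Slc7a9 ranged from -1.25 to 0.47, positive without Ago2-deficient replicate 2 only, and Slc2a9 from -2.40 to 0.31, positive without Ago2-deficient replicate 3 only. Transporter genes called higher, 1 on the deposited values, numbered 0 after the array medians were made equal, 2 with cyclic loess, 2 after centring on probes seen on all 6 arrays, 2 at a signal-to-noise limit of 2 and 4 with no filter on dim probes, and 1 to 5 with 1 oocyte left out. Those called lower, 9 before, numbered 12 after the array medians were made equal, 10 with no scaling, 6 after centring on probes seen on all 6 arrays, 4 with cyclic loess, 4 with ordinary t-statistics, 5 with no filter and 0 among genes detected on all 6 arrays, where Slc43a3 alone was left, and 4 to 9 with 1 oocyte left out. Partner genes called lower, 7 before, numbered 11 after the array medians were made equal, 4 with no filter, 4 with ordinary t-statistics and 2 among genes detected on all 6 arrays, and 4 to 8 with 1 oocyte left out; none was called higher under any alternative. Over all tested genes, 1378 were higher and 3543 lower, against 311 and 6223 after the array medians were made equal, 609 higher with no scaling, and 543 lower among genes detected on all 6 arrays, with 1207 to 1957 higher and 3019 to 3812 lower with 1 oocyte left out. The cause was not tested. The share of calls that were higher was 28.0%, against 4.76% after the array medians were made equal, 11.3% with no scaling and 43.7% with cyclic loess.

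Nothing says that the replicate numbers pair the oocytes. Deviations from the group means correlated at -0.0487, 0.0275 and -0.0339 across genes, which shows no strong pairing but cannot exclude a weak one. With the replicate number as a block, 1 transporter gene was called higher and 9 lower as before, and 6 partner genes were called lower. Leaving out an oocyte also changes which probes are tested. The background correction was not run because the files used here give no background column. Of the 16 tested transporter genes, 8 were detected in no Ago2-deficient oocyte, so their values there lie under the detection limit.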

Other observations

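Several members read high on the log2 scale in Ago2-deficient oocytes without passing the detection limit. Slc6a11, a GABA carrier, had log2 signals of 11.87, 10.37 and 7.20 in Ago2-deficient oocytes, beside 5.31, 6.29 and 6.42 in the wild-type GV oocytes, yet its signal-to-noise ratios in the Ago2-deficient oocytes were -0.25, 0.01 and -0.36. Over all probes, 1274, 549 and 290 undetected probes had a log2 signal above 10 in Ago2-deficient oocytes, beside 3, 4 and 8 in wild-type GV oocytes. With no filter on dim probes Slc16a10, Slc1a5 and Slc7a1 were called higher beside Slc43a3.

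The median deposited signal of undetected probes was 231, 220.5 and 145 in Ago2-deficient oocytes, beside 83.3, 77.4 and 70.8 in wild-type GV oocytes.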
